A study of Mus musculus and Acomys cahirinus with 25 samples.

Results

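The S100 genes were followed across 25 RNA-seq libraries of wounded and unwounded mouse skin. They were chosen by symbol: S100a3, S100a4, S100a6, S100a7a, S100a8, S100a9, S100a10, S100a11, S100a14 and S100a16 were all found, 10 of the 24500 gene symbols in the count tables. The laboratory mice had 1 × 1 cm full-thickness back wounds. These were collected at post-wound day 14 (PWD14) and parted into epidermis and dermis and into wound center, where new hair follicles form, and wound margin. C57BL/6J was the study's main strain. There were 2 libraries of center epidermis, 2 of margin epidermis, 5 of center dermis and 2 of margin dermis, all wild type, and 2 of center dermis from K14-Cre-Twist1 mice, whose Cre is driven by the keratinocyte Krt14 promoter so that Twist1 is deleted in keratinocytes and not in the dermal cells that were sequenced. Center dermis replicates 1 and 2 were the counterparts of the margin, and replicates 3 to 5, Twist1+/+, were the controls of the knockout. The study's methods name no background strain for the knockout or these controls. African spiny mouse (Acomys cahirinus) wounds were taken whole at PWD14, 21 and 28, and PWD0 was skin before wounding. There were 1, 2, 2 and 1 epidermis libraries at PWD0, 14, 21 and 28 and 2, 1, 2 and 1 dermis libraries. These days are those of the labels, and elsewhere the study names slightly different days for the wounded groups.

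S100 proteins are small calcium-binding proteins with a pair of EF-hand motifs that act mostly as dimers. Inside the cell they bind annexins, myosin and other targets, and several are also released, where S100A8 and S100A9 act as an alarm signal on receptors such as RAGE and TLR4. In skin, S100A8, S100A9 and the psoriasin relative S100A7A are known from inflamed or healing keratinocytes (S100A8 and S100A9 also from neutrophils), S100A14 and S100A16 from epithelia, S100A3 from the hair shaft cuticle, and S100A4 and S100A6 from fibroblasts and other mesenchymal cells. S100A10 pairs with annexin A2, and S100A11 binds annexin A1.

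All 10 genes lie on mouse chromosome 3 (GRCm38.p6, RefSeq). S100a8 (chr3:90669071-90670034) and S100a9 (chr3:90692630-90695721), each other's nearest gene in pattern over the laboratory mouse libraries, are close neighbors, as are S100a4 (chr3:90603770-90606045) and S100a6 (chr3:90612894-90614414), both higher in dermis in the laboratory mouse wound center. The RefSeq promoters of these 4 genes, 250 bases before to 50 after the start, are shown because each pair shares a position and the trait just named. S100a4 and S100a6 were not each other's nearest gene in pattern. Over the laboratory mouse libraries S100a6 ranked 162 in nearness to S100a4, and S100a4 ranked 715 in nearness to S100a6. Capitals mark 4 motifs, searched on both strands. The TATA box was searched as TATAAA. The C/EBP motif was TTGCNNAA. The AP-1 motif was TGANTCA. The E-box, the class of site that Twist1 binds, was CANNTG.

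S100a8, chr3:90668821-90669120, plus strand: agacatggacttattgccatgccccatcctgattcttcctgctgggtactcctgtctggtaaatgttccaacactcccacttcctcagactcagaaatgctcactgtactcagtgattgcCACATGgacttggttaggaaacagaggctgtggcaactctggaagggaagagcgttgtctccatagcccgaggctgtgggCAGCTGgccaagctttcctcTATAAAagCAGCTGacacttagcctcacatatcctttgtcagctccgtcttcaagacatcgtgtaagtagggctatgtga
S100a9, chr3:90695672-90695971, minus strand: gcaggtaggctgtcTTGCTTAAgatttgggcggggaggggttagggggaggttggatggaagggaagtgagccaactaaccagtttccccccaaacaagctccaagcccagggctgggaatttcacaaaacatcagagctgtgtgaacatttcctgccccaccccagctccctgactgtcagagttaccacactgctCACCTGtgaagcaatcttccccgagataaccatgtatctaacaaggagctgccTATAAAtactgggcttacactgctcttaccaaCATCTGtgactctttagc
S100a4, chr3:90603520-90603819, plus strand: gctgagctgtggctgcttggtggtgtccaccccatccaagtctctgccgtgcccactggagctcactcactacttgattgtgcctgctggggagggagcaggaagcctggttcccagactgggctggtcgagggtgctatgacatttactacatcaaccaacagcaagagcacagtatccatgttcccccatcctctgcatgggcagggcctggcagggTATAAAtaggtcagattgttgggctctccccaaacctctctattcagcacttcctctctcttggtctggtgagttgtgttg
S100a6, chr3:90612644-90612943, plus strand: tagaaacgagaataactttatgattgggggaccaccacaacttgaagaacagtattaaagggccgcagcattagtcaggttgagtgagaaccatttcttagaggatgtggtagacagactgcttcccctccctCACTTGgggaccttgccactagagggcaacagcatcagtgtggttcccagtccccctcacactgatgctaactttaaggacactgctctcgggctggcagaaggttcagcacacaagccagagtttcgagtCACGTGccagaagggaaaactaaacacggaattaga

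In the S100a8 window TATAAA began 30 bases before the start and in the S100a4 window 31 bases before it. The S100a9 window held the same letters at the start itself and TTGCTTAA near its far end, the 1 C/EBP match among the 12 member windows of 8 genes. E-box letters stood in the S100a6, S100a8 and S100a9 windows and not in that of S100a4, and AP-1 letters in none of these 4. Among 32544 promoter windows of this length, 13.6% held TATAAA, 10.8% TTGCNNAA, 7.79% TGANTCA and 72.3% CANNTG.

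The 10 genes together took between 1267 and 4644 counts per 1000000 counts of all genes (CPM) in the laboratory mouse libraries and between 1331 and 8354 CPM in the spiny mouse libraries. Their makeup differed by layer. In laboratory mouse epidermis S100a11 held 40.9% to 82.8% of the family's counts, and in laboratory mouse dermis S100a6 held between 19.5% and 43.0%. In spiny mouse dermis S100a6 led every library with 36.8% to 66.4%, and in spiny mouse epidermis S100a9 held 42.6% and 35.2% at PWD14 against 0.0284% at PWD0. Per kilobase of exon (GENCODE vM21), the leading genes of the group means were S100a11 in laboratory mouse epidermis, S100a11 or S100a6 in its dermis, S100a6 in spiny mouse dermis, and S100a9 in spiny mouse epidermis at PWD14 and PWD21.

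**Figure D1:**
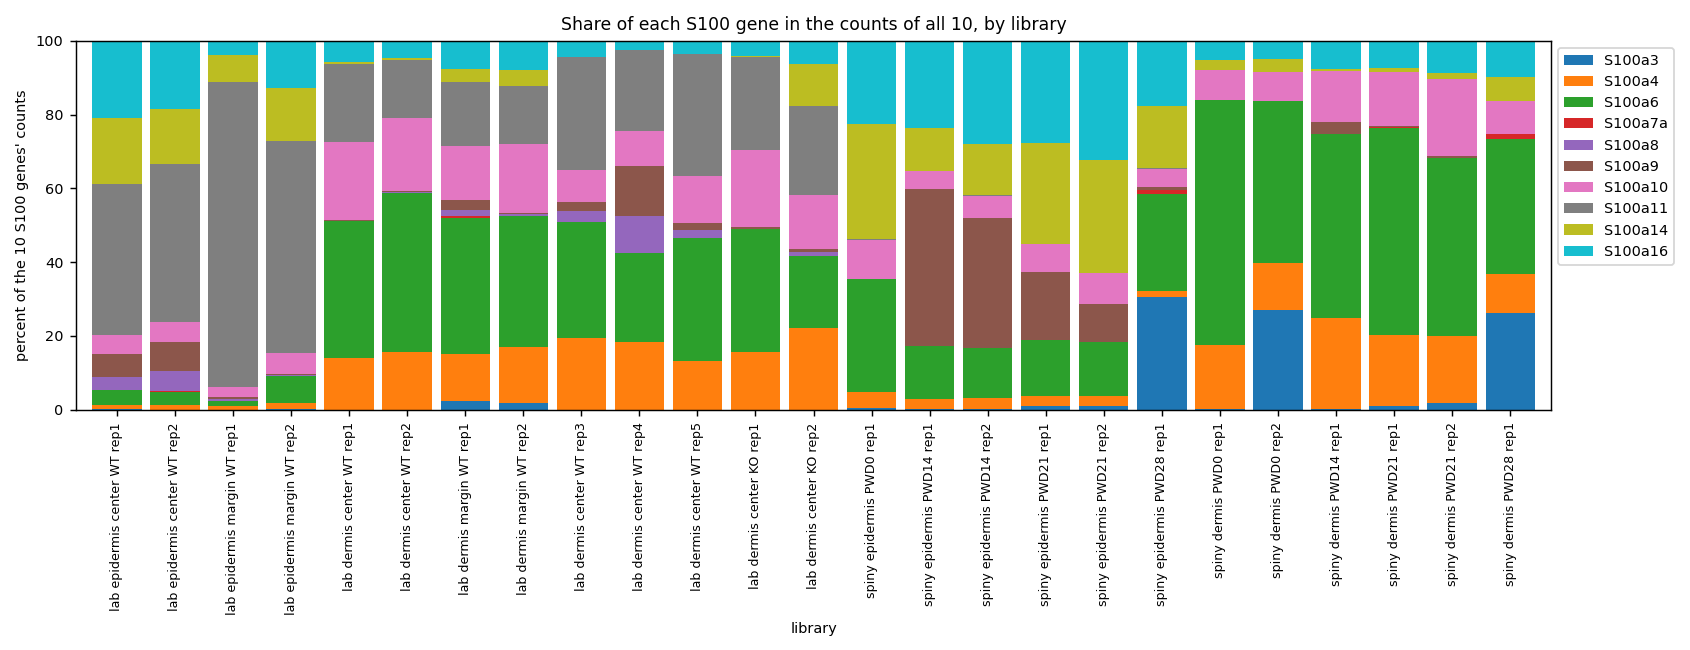
Each bar is 1 library and shows the percent of the counts of the 10 S100 genes that each gene took. S100a11 (gray) filled most of the laboratory mouse margin epidermis bars, S100a9 (brown) was widest in spiny mouse epidermis at PWD14, and S100a3 (blue) was wide in 3 spiny mouse libraries.

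Libraries held 19413261 to 86532134 reads on genes in the laboratory mouse and 5669760 to 34751956 in the spiny mouse. Dropped from counting for a low mapping quality were 38.0% to 60.5% of spiny mouse reads and 23.3% to 34.4% of laboratory mouse reads. These shares do not themselves measure sequence divergence. Spiny mouse reads were aligned to the mouse genome, so a low spiny mouse value and a diverged sequence cannot be told apart. Levels were not compared between species. S100a8 had at most 3 counts in each of the 12 spiny mouse libraries, the amount taken as the detection floor, and no fold is given for it there. S100a11 had 7 to 87 counts there, and the mouse genome holds a pseudogene (S100a11-ps) that may share reads with S100a11 in both species. Keratinocyte markers were highest in the epidermis and fibroblast markers in the dermis of both species, but 1 knockout dermis library carried 41343 CPM of keratinocyte markers, and hair shaft keratins were high in some dermis libraries. The labels do not say whether libraries of a group came from separate animals, though the study calls its replicates independent, and p-values measure the spread between libraries. In bulk tissue, fewer cells of a type and less RNA per cell cannot be told apart.

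**Figure D2:**
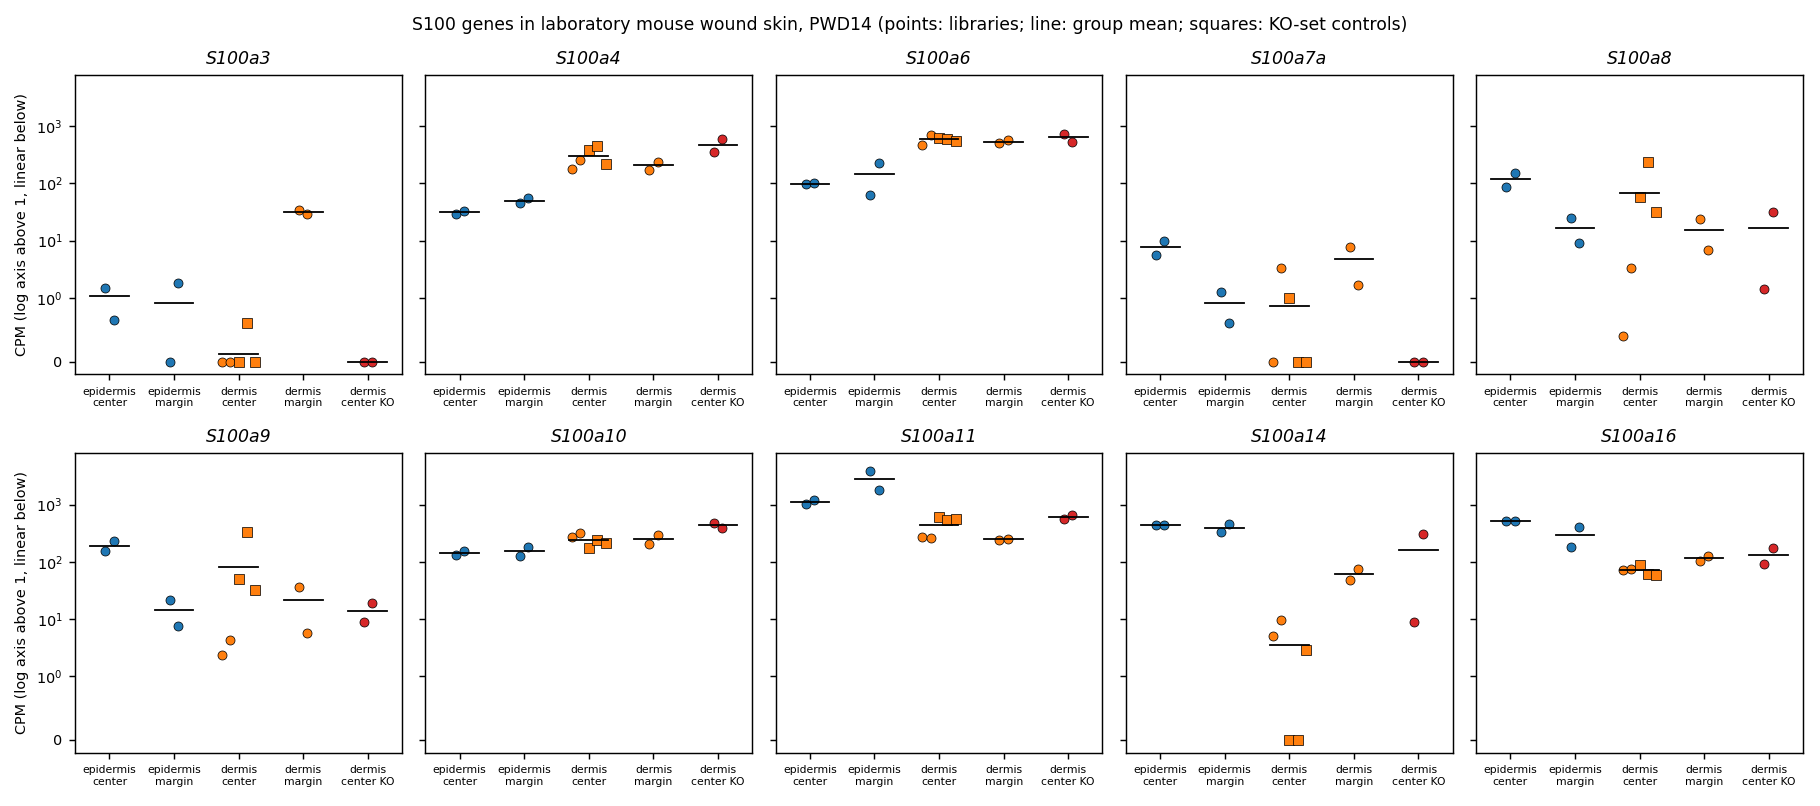
CPM of each S100 gene in the 13 laboratory mouse libraries at PWD14, with 1 point a library, squares for the controls of the knockout and a line at each group mean, on an axis that is logarithmic above 1 CPM. S100a14 and S100a16 were high in epidermis, S100a4 and S100a6 high in dermis, and S100a8 and S100a9 spread most widely in center dermis.

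In the wound center of the laboratory mouse, 5 members were higher in epidermis and 2 in dermis. S100a14, an epithelial member, measured 444 and 433 CPM in center epidermis and 0 to 9.74 CPM (median 2.89) in the 5 center dermis libraries, a log2 fold change of 7.73 ± 1.08 (SE, edgeR adjusted p = 0.000303). S100a16 measured 514 and 525 CPM in epidermis against 59.3 to 88.5 CPM (median 73.2) in dermis, a log2 fold change of 3.58 ± 0.19 (edgeR adjusted p = 3.26e-06). S100a11 measured 1008 and 1219 CPM against 261 to 609 CPM (median 530), a log2 fold change of 2.04 ± 0.36 (edgeR adjusted p = 0.00126). Its dermis values were 269 and 261 CPM in replicates 1 and 2 and 530 to 609 CPM in the knockout controls. In these 3 genes the layers did not overlap, nor did they in S100a3, S100a4, S100a6 and S100a7a. They did not overlap in S100a10 either, which was not called. How many of all genes were so separated was not counted.

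S100a4, a mesenchymal member that binds non-muscle myosin, ran the other way, with 29.6 and 33.0 CPM in center epidermis and 178 to 445 CPM (median 257) in center dermis (log2 fold change -2.53 ± 0.39, edgeR adjusted p = 0.000539). S100a6 did likewise, with 97.3 and 102 CPM against 469 to 709 CPM (median 589; log2 fold change -1.85 ± 0.22, edgeR adjusted p = 0.00012). S100a7a measured 5.71 and 9.77 CPM in epidermis and at most 3.35 CPM in dermis, and S100a3 1.5 and 0.65 CPM against at most 0.60 CPM. The calls of S100a3 and S100a7a were lost in DESeq2 (adjusted p = 0.298 and 0.274). Of the 10 members tested, 7 were called, against 51.8% of all tested genes, of which 51.7% were higher in epidermis (28.3% when scaled by library size only). Without epidermis replicate 2, 5 members were called (S100a3 and S100a7a were lost), and S100a3 was lost without replicate 1 too (adjusted p = 0.274). S100a9, not called over all libraries, was called without dermis replicate 4 (log2 fold change 3.78, adjusted p = 0.012). Epidermis libraries were paired-end and dermis libraries single-end, so layer and read type cannot be told apart in these comparisons.

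At the wound margin 5 members were called, 3 higher in epidermis and 2 in dermis, against 47.7% of all tested genes (43.8% of the calls were higher in epidermis, and 20.5% when scaled by library size only). S100a11 measured 3846 and 1814 CPM in margin epidermis and 241 and 251 CPM in margin dermis (log2 fold change 4.38 ± 0.66, edgeR adjusted p = 0.000381). S100a14 measured 336 and 454 CPM against 48.9 and 73.6 CPM (log2 fold change 3.52 ± 0.37, edgeR adjusted p = 3.85e-05), and S100a16 179 and 401 CPM against 105 and 125 CPM (log2 fold change 2.15 ± 0.39, edgeR adjusted p = 0.00132). S100a4 was the lower of the layers in epidermis, with 45.5 and 55.1 CPM against 173 and 241 CPM (log2 fold change -1.20 ± 0.31, edgeR adjusted p = 0.00911), a call lost without margin dermis replicate 2 (adjusted p = 0.152).

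S100a3, the hair shaft member, was lower in margin epidermis (0 and 1.85 CPM) than in margin dermis (34.1 and 29.7 CPM; log2 fold change -4.02 ± 0.79, edgeR adjusted p = 0.00211), and DESeq2 did not call it (adjusted p = 0.178). S100a6 was not called at the margin, with 62.8 and 227 CPM in epidermis against 510 and 570 CPM in dermis. S100a10, the annexin A2 partner, was called in neither region. It measured 128 to 182 CPM in epidermis and 174 to 324 CPM in wild-type dermis, and scaling by library size only gave a center log2 fold change of -0.80 with an adjusted p of 0.0234. That scaling moved the median log2 fold change of all genes by -0.72 in the center and -0.82 at the margin.

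Between wound center and wound margin of the laboratory mouse epidermis, no member passed the threshold in edgeR (1.24% of all tested genes did). An unadjusted p under 0.05 was found for 5 members, beside 3328 of 14165 tested genes. DESeq2 called 4 members, beside 1511 of 13615 genes, and the likelihood ratio test 4, beside 1533 of 14165. S100a9 measured 152 and 226 CPM in center epidermis against 21.4 and 7.63 CPM at the margin (log2 fold change 3.64 ± 0.57, edgeR adjusted p = 0.0545). S100a8 measured 85.7 and 154 CPM against 24.4 and 9.22 CPM (2.76 ± 0.58, edgeR adjusted p = 0.0874), and S100a7a 5.71 and 9.77 CPM against 1.25 and 0.60 CPM (3.15 ± 0.61, edgeR adjusted p = 0.078). In each of these 3 alarm-type members both center libraries lay above both margin libraries, as in S100a16. The share of all genes so separated was not counted.

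S100a11 lay the other way, 1008 and 1219 CPM in the center against 3846 and 1814 CPM at the margin (log2 fold change -1.47 ± 0.45, edgeR adjusted p = 0.146), as did S100a4 (-0.79 ± 0.22, edgeR adjusted p = 0.133). DESeq2 called S100a7a, S100a8, S100a9 and S100a11 (adjusted p = 0.00071, 1.8e-05, 4.6e-10 and 0.00704). With either margin library left out the single one left is assumed to vary like the rest, and 8 members were then called, but so were 5508 of 15123 tested genes without replicate 1 and 7405 of 14553 without replicate 2. The center libraries also held 15783 and 22600 CPM of activated keratinocyte markers against 6903 and 10607 CPM at the margin, 38.5 and 40.3 CPM of neutrophil markers against 117 and 53.6 CPM, and 6510 and 5356 CPM of fibroblast markers against 2479 and 853 CPM. Of the neutrophil list, Ly6g, Retnlg, Ngp and Elane had no counts in these 4 libraries. Few genes carried the neutrophil sums. The median of the 12 neutrophil markers was 0.0074 and 0.13 CPM in the center and 0 CPM in both margin libraries. Of the 5 that could be tested, 2 were higher in the center, and edgeR called 0. The part of these cell types in the result was not tested.

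In laboratory mouse dermis 2 members were lower in the center than at the margin, against 0.850% of all tested genes called in either direction. Of all those calls, 13.6% were higher in the center. S100a14 measured 5.03 and 9.74 CPM in the center against 48.9 and 73.6 CPM at the margin (log2 fold change -2.98 ± 0.42, edgeR adjusted p = 0.00844). S100a3 had no counts in either center library and 34.1 and 29.7 CPM at the margin, at least 206-fold lower in the center against the floor (edgeR adjusted p = 0.00984). Both calls were lost when either margin library was left out. With replicate 1 left out the adjusted p was 0.166 for S100a3 and 0.0703 for S100a14, and with replicate 2 left out it was 0.174 and 0.297. Neither held in a fit over all laboratory mouse libraries (adjusted p = 0.244 and 0.597).

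Markers of the epidermis and of hair moved with these 2 genes. Keratinocyte markers summed to 684 and 520 CPM in the center and 2608 and 5393 CPM at the margin, with 9 of 14 called lower in the center, and the hair shaft list to 2.04 and 2.68 CPM against 142 and 187 CPM, with 4 of 9 called lower. Of that list, Krt31, Krt33a, Krt33b, Krt34, Krt35, Krt81 and Krt86 had no counts in these center libraries. Their part in the result was not tested. S100a8 (0.41 and 3.30 CPM against 24.0 and 6.98 CPM) and S100a9 (2.36 and 4.33 CPM against 37.0 and 5.72 CPM) were not called (edgeR adjusted p = 0.214 and 0.238). Their log2 fold changes of -3.06 and -2.63 became 2.26 and 2.08 when all 5 wild-type center libraries entered.

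The center-to-margin difference of the epidermis minus that of the dermis was called for 4 members, against 3.48% of all tested genes. It was positive in all 4, as it was in 96.1% of all called genes. It was 6.41 ± 1.09 log2 units for S100a9 (edgeR adjusted p = 0.0091), 5.95 ± 1.07 for S100a8 (edgeR adjusted p = 0.0114), 3.17 ± 0.45 for S100a14 (edgeR adjusted p = 0.00409) and 12.73 ± 2.75 for S100a3, a value that depends on the prior count since the center dermis had no counts (edgeR adjusted p = 0.0336). With all 5 center dermis libraries the differences of S100a8 and S100a9 fell to 0.66 and 1.71 (adjusted p = 0.969 and 0.797), that of S100a14 was 4.25 (adjusted p = 0.0869), and 1 member was called. No member was called in the fit over all laboratory mouse libraries. Leaving out center dermis replicate 1, center dermis replicate 2 or margin dermis replicate 1 left 1 call each, that of S100a14. The call of S100a3 was also lost without margin dermis replicate 2 and without either center epidermis library.

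In center dermis of the K14-Cre-Twist1 mice no member passed the threshold in edgeR against the 3 controls (0.0565% of all tested genes did). Of the 8 tested, 5 had an unadjusted p under 0.05, beside 1631 of 14163 genes. DESeq2 called S100a10, beside 787 of 14158 genes in all. Twist1 itself measured 73.4 and 44.0 CPM in the knockout dermis and 57.7, 36.3 and 104.6 CPM in the controls (log2 fold change -0.19 ± 0.47, edgeR adjusted p = 0.885), which does not check the deletion, made in keratinocytes. S100a10 measured 468 and 393 CPM in the knockout and 174, 236 and 215 CPM in the controls (log2 fold change 1.05 ± 0.23, edgeR adjusted p = 0.254, DESeq2 adjusted p = 3.58e-05). The groups did not overlap, nor did they for S100a8, S100a9, S100a14 and S100a16, and the share of all genes so separated was not counted.

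S100a14 measured 8.99 and 307 CPM in the knockout and 0, 0 and 2.89 CPM in the controls (log2 fold change 7.24 ± 1.42, edgeR adjusted p = 0.164). S100a16 measured 92.3 and 172 CPM against 88.5, 62.0 and 59.3 CPM (0.90 ± 0.32, edgeR adjusted p = 0.364). In both genes the high value was knockout replicate 2, whose keratinocyte markers summed to 41343 CPM against 1154 CPM in replicate 1 and 14.7 to 65.9 CPM in the controls, and whose activated keratinocyte markers summed to 3049 CPM against 79.6 CPM and 3.99 to 4.79 CPM. Without replicate 2 no member was called, and without replicate 1 S100a10, S100a14 and S100a16 were (adjusted p = 0.0286, 2.47e-05 and 0.0149). That last fit rests on 1 knockout library, assumed to vary like the controls, and calls 3353 of 14915 tested genes. The part of the keratinocyte RNA in these values was not tested.

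S100a8 measured 1.41 and 31.8 CPM in the knockout and 58.8, 242 and 32.2 CPM in the controls (log2 fold change -2.73 ± 1.09, edgeR adjusted p = 0.402), and S100a9 8.94 and 18.8 CPM against 49.3, 325 and 32.0 CPM (-3.26 ± 1.04, edgeR adjusted p = 0.324). For both, the highest control was replicate 4, where neutrophil markers summed to 418 CPM against 115 and 83.8 CPM in the other controls and 45.6 and 61.4 CPM in the knockout. S100a4, S100a6 and S100a11 had log2 fold changes of 0.42, 0.10 and 0.10, with overlapping groups.

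**Figure D3:**
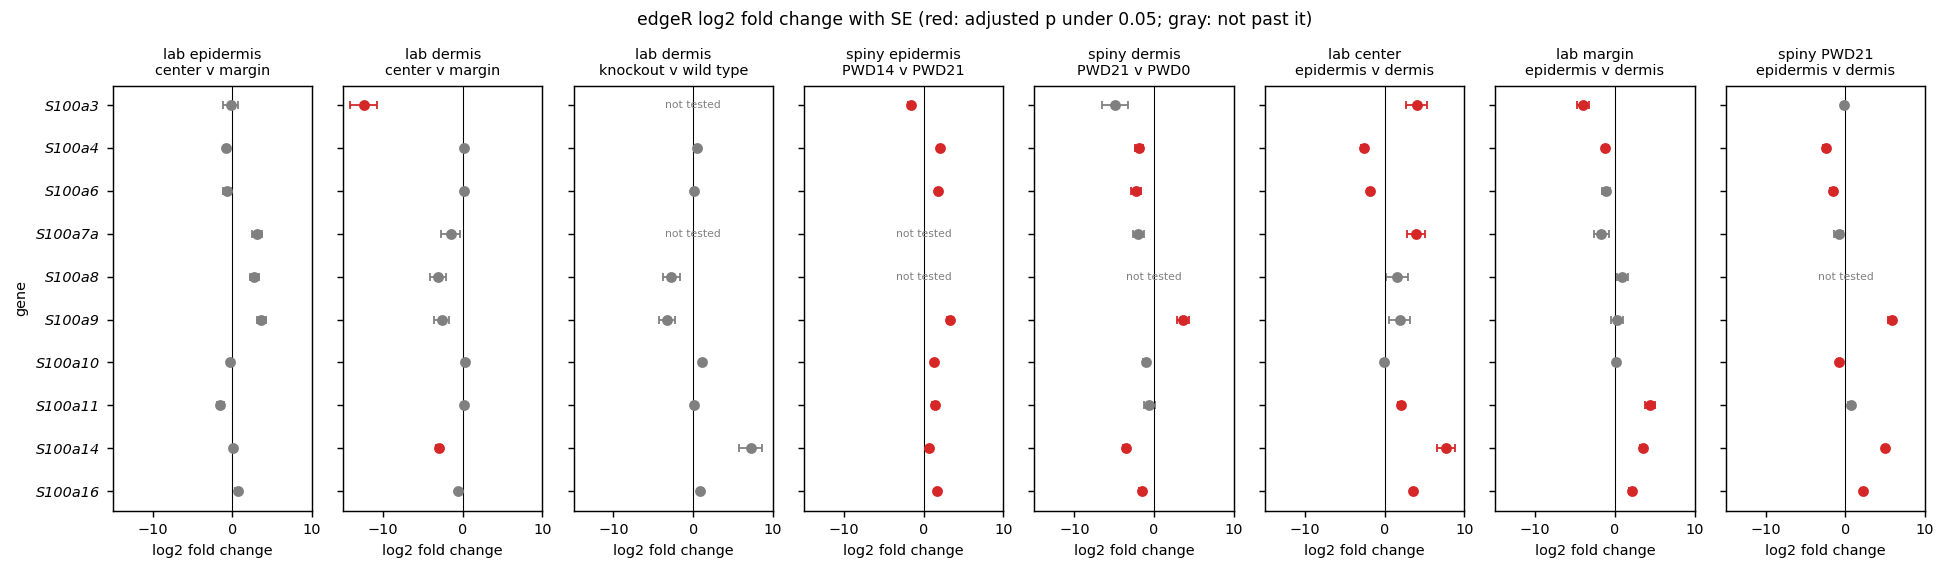
Log2 fold change with its SE for each S100 gene in 8 comparisons, red where the adjusted p was under 0.05 and gray where it was not. S100a14 lay right of 0 in all 3 comparisons of epidermis with dermis, and S100a4 left of 0. The value of -12.40 for S100a3 in laboratory mouse dermis depends on the prior count, since its center libraries held no counts.

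**Figure D4:**
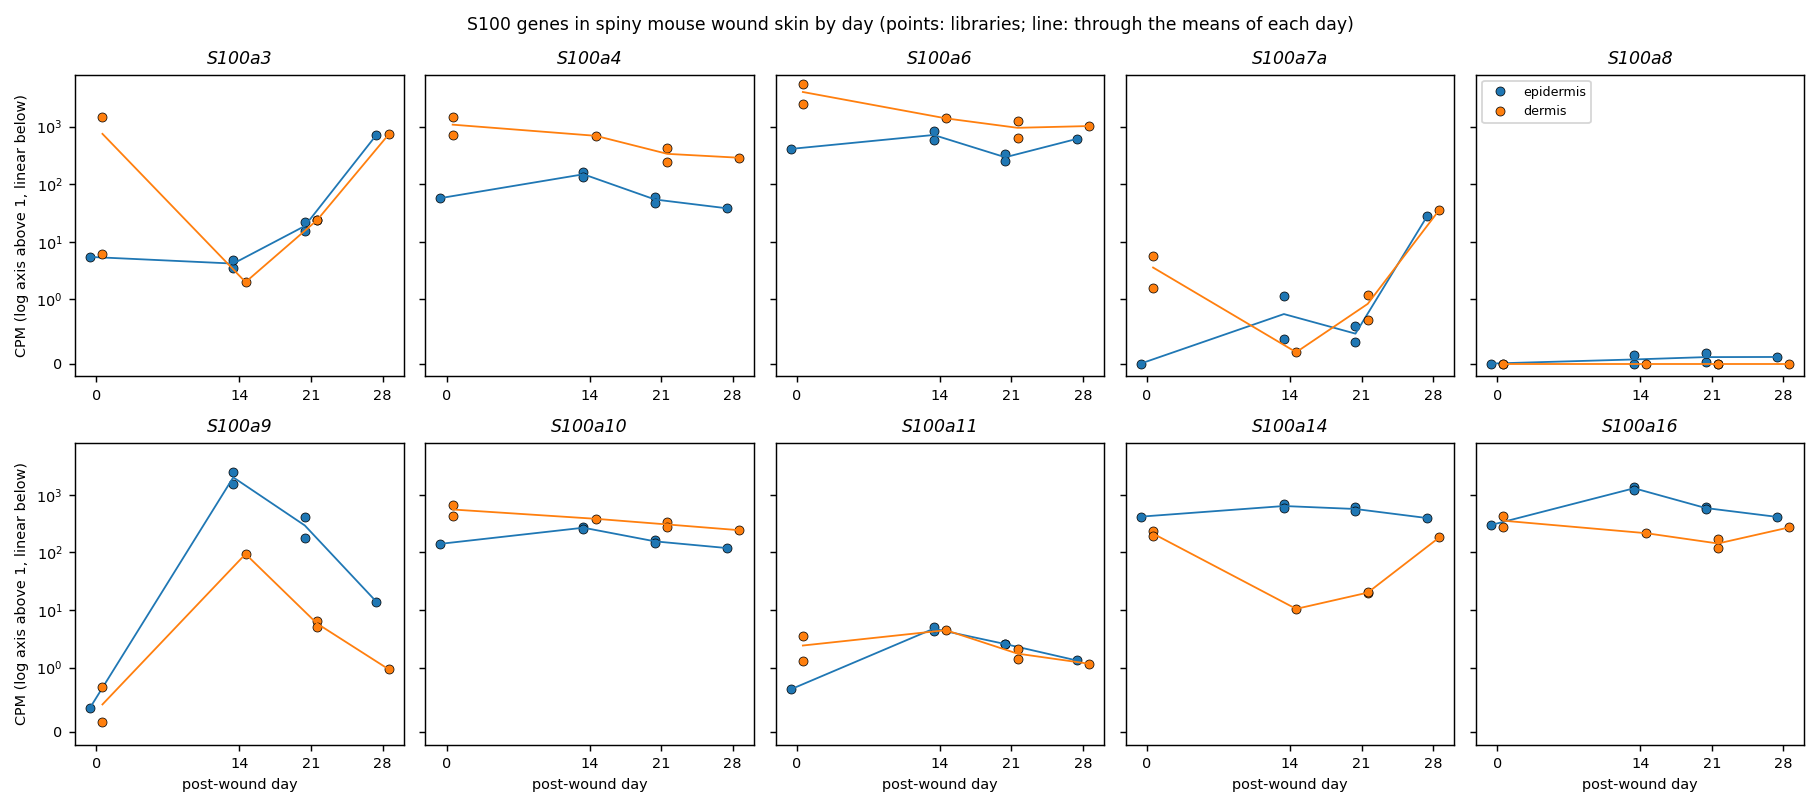
CPM of each S100 gene in the 12 spiny mouse libraries by post-wound day, with 1 point a library and lines through the mean of each day, on an axis that is logarithmic above 1 CPM. S100a9 was highest at PWD14 in both layers, S100a14 in dermis was lowest at PWD14 and PWD21, and S100a3 was high at PWD28 and in 1 of 2 dermis libraries at PWD0.

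In spiny mouse epidermis S100a9 went from 0.38 CPM at PWD0 to 2503 and 1511 CPM at PWD14, 407 and 180 CPM at PWD21 and 14.0 CPM at PWD28. Between PWD14 and PWD21 it was higher at PWD14 by a log2 fold change of 3.33 ± 0.37 (edgeR adjusted p = 8.9e-05), and PWD14 and PWD21 together exceeded PWD0 and PWD28 by 8.88 ± 0.56 (edgeR adjusted p = 2.97e-06). The groups of days did not overlap. S100a8, the partner of S100A9 in the calprotectin dimer, stayed at or under the floor, with at most 0.17 CPM in any of these libraries. Activated keratinocyte markers moved with S100a9 in this layer, at 7501 CPM at PWD0, 56287 and 34899 CPM at PWD14, 16615 and 10232 CPM at PWD21 and 5665 CPM at PWD28. Neutrophil markers were 119 to 134 CPM at PWD14 and PWD21 and 226 CPM at PWD0, and nearly all of their counts were of Il1r2.

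All 8 members that could be tested differed between PWD14 and PWD21 epidermis, 7 of them higher at PWD14, against 46.6% of all tested genes called (50.2% of the calls higher at PWD14, and 18.9% when scaled by library size only). S100a16 measured 1389 and 1208 CPM at PWD14 against 614 and 564 CPM (log2 fold change 1.70 ± 0.17, edgeR adjusted p = 5.39e-05). S100a4 measured 166 and 132 CPM against 60.9 and 47.7 CPM (2.0 ± 0.20, edgeR adjusted p = 5.77e-05), S100a6 848 and 583 CPM against 334 and 254 CPM (1.84 ± 0.22, edgeR adjusted p = 0.000136), and S100a10 278 and 258 CPM against 166 and 145 CPM (1.34 ± 0.16, edgeR adjusted p = 0.000141).

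S100a11 measured 4.34 and 5.17 CPM at PWD14 against 2.57 CPM in both PWD21 libraries (log2 fold change 1.44 ± 0.35, edgeR adjusted p = 0.006), and without PWD21 replicate 1 its adjusted p was 0.0502. For S100a14 the days overlapped in CPM, 682 and 594 against 603 and 531, and its log2 fold change was 0.73 ± 0.17 with TMM (edgeR adjusted p = 0.0047) and 0.17 when scaled by library size only (adjusted p = 0.373), a scaling that moved the median of all genes by -0.55. It was not called without PWD21 replicate 2 (adjusted p = 0.058). S100a3 was the member lower at PWD14, with 3.49 and 4.91 CPM against 22.0 and 15.7 CPM (-1.62 ± 0.31, edgeR adjusted p = 0.00166), and the hair shaft list was at 3.10 and 6.38 CPM against 155 and 168 CPM. S100a7a, at most 1.16 CPM on these days, was not tested.

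Set against PWD0 and PWD28, PWD14 and PWD21 epidermis had 6 members higher and 1 lower of the 9 tested, against 48.1% of all tested genes (47.6% of the calls were higher, and 20.3% when scaled by library size only). Beside S100a9, the higher ones were S100a16 (log2 fold change 1.83 ± 0.16, edgeR adjusted p = 1.58e-05), S100a11 (2.4 ± 0.47), S100a4 (1.45 ± 0.19), S100a10 (1.17 ± 0.15) and S100a14 (1.08 ± 0.15, edgeR adjusted p = 0.000265). S100a6 was not called (0.39 ± 0.20), with 409 CPM at PWD0 and 612 CPM at PWD28 inside the range of the other days. S100a3 was called lower (-2.29 ± 0.25), but this rested on the PWD28 library, which held 716 CPM against 5.48 CPM at PWD0. Without PWD28 its log2 fold change was 1.17 (adjusted p = 0.0374). S100a7a behaved alike, with 27.6 CPM at PWD28 and none at PWD0, a log2 fold change of 0.82 ± 1.86 over all libraries and -4.93 without PWD0 (adjusted p = 9.02e-06). That PWD28 library held 3764 CPM of hair shaft markers, and PWD0 45.6 CPM. With 1 library each, PWD0 and PWD28 were assumed to vary like the other days.

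In spiny mouse dermis S100a9 measured 0.71 and 0.15 CPM at PWD0, 93.8 CPM at PWD14, 6.48 and 5.18 CPM at PWD21 and 0.98 CPM at PWD28. PWD14 and PWD21 exceeded PWD0 and PWD28 by a log2 fold change of 5.39 ± 0.51 (edgeR adjusted p = 0.000617) and PWD21 exceeded PWD0 by 3.69 ± 0.75 (edgeR adjusted p = 0.0093). S100a14 ran the other way, with 231 and 192 CPM at PWD0, 10.5 CPM at PWD14, 19.4 and 20.7 CPM at PWD21 and 182 CPM at PWD28. It fell by 3.52 ± 0.32 log2 units from PWD0 to PWD21 (edgeR adjusted p = 0.000357) and had a log2 fold change of -3.56 ± 0.29 at PWD14 and PWD21 together against PWD0 and PWD28 (edgeR adjusted p = 0.000415). Keratinocyte markers in these dermis libraries summed to 13911 and 9887 CPM at PWD0, 1997 CPM at PWD14, 853 and 1499 CPM at PWD21 and 5343 CPM at PWD28, and their part in the S100a14 values was not tested. The summed activated keratinocyte markers were lower at PWD14 and PWD21, where S100a9 was higher. They came to 16085.5 and 9558 CPM at PWD0, 571 CPM at PWD14, 525 and 520 CPM at PWD21 and 1892 CPM at PWD28. Few genes carried these sums. The median of the 8 markers was 14.6 and 12.9 CPM at PWD0 and 10.4 CPM at PWD14. It was 2.87 and 5.97 CPM at PWD21 and 16.6 CPM at PWD28. The part of these markers in the S100a9 values was not tested.

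Between PWD21 and PWD0 dermis, 5 of 9 tested members were called, 1 higher and 4 lower at PWD21, against 26.2% of all tested genes (45.9% of the calls were higher). S100a6, the member with the highest CPM in spiny mouse dermis, measured 5544 and 2420 CPM at PWD0 and 1260 and 645 CPM at PWD21 (log2 fold change -2.24 ± 0.62, edgeR adjusted p = 0.0309). S100a4 measured 1452 and 708 CPM against 428 and 245 CPM (-1.85 ± 0.49, edgeR adjusted p = 0.0265), and S100a16 437 and 274 CPM against 168 and 118 CPM (-1.46 ± 0.37, edgeR adjusted p = 0.023). S100a10 measured 678 and 433 CPM against 330 and 281 CPM and was not called (-1.01 ± 0.37, edgeR adjusted p = 0.0742).

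In each of these genes the days did not overlap, which was not counted over all genes. Marker lists moved in both directions between these days. Fibroblast markers had 9 of 15 called higher at PWD21 and endothelial markers 3 of 4. Lower at PWD21 were 11 of 14 keratinocyte, 4 of 5 tested activated keratinocyte, 5 of 5 adipocyte, 5 of 6 skeletal muscle and 2 of 6 Schwann cell markers, and their part in the result was not tested. With either PWD21 library left out, S100a14 was the 1 member still called. The adjusted p of S100a4 and S100a6 was then 0.0933 and 0.133 without replicate 1 and 0.238 and 0.313 without replicate 2, that of S100a9 0.0974 and 0.0758, and that of S100a16 0.0924 and 0.198. With either PWD0 library left out 7 members were called, beside 3857 of 15202 tested genes without replicate 1 and 5118 of 15065 without replicate 2. In the fit over all spiny mouse libraries 8 members were called, beside 5425 of 15942 genes.

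S100a3 split the 2 PWD0 dermis libraries, with 6.17 CPM in replicate 1 and 1490 CPM in replicate 2, and measured 2.0 CPM at PWD14, 23.9 and 23.8 CPM at PWD21 and 729 CPM at PWD28. PWD21 against PWD0 was not called (log2 fold change -4.95 ± 1.64, edgeR adjusted p = 0.0559), and without PWD0 replicate 2 the sign turned (1.72, adjusted p = 0.00269). The hair shaft list summed to 86.1 and 11316 CPM in the PWD0 libraries, 27.0 CPM at PWD14, 239 and 270 CPM at PWD21 and 7279 CPM at PWD28, so the libraries high in S100a3 were those high in hair keratins. S100a7a measured 1.59, 5.58, 0.18, 0.68, 1.18 and 35.8 CPM over the same libraries.

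Against PWD0 and PWD28, PWD14 and PWD21 dermis had 4 of 9 tested members called, S100a9 higher and S100a14, S100a3 and S100a7a lower, against 15.9% of all tested genes (38.7% of the calls were higher, and 25.8% when scaled by library size only). The log2 fold change was -6.48 ± 1.68 for S100a3 (edgeR adjusted p = 0.0343) and -4.54 ± 0.61 for S100a7a (edgeR adjusted p = 0.00246). S100a3 lost its call without PWD14 replicate 1, PWD21 replicate 1 or PWD21 replicate 2 (adjusted p = 0.107, 0.0726 and 0.0704). Without PWD0 replicate 2, 6 members were called, S100a6 and S100a16 (both lower) among them.

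**Figure D5:**
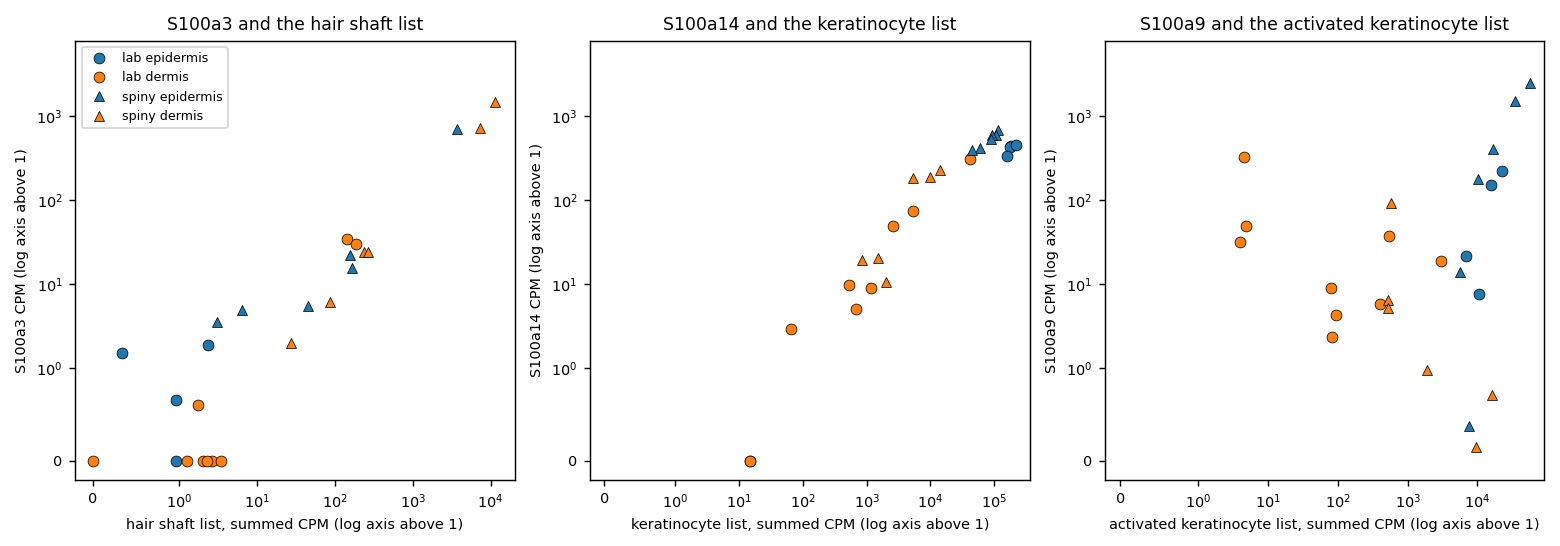
Each point is 1 of the 25 libraries, with the CPM of an S100 gene against the summed CPM of a marker list, on axes that are logarithmic above 1, circles for laboratory mouse and triangles for spiny mouse, blue for epidermis and orange for dermis. Within the spiny mouse, S100a3 was highest in the 3 libraries with the most hair shaft markers and S100a9 in the 2 PWD14 epidermis libraries. Within the laboratory mouse, S100a14 was at 0 CPM in the library with the fewest keratinocyte markers (14.7 CPM), and S100a9 was highest, at 325 CPM, in a dermis library with few activated keratinocyte markers.

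Between the layers of the PWD21 spiny mouse wound, 6 of 9 tested members were called, 3 in each direction, against 62.9% of all tested genes. S100a9 measured 407 and 180 CPM in epidermis against 6.48 and 5.18 CPM in dermis (log2 fold change 5.80 ± 0.47, edgeR adjusted p = 4.24e-05), S100a14 603 and 531 CPM against 19.4 and 20.7 CPM (4.94 ± 0.24, edgeR adjusted p = 6.47e-06) and S100a16 614 and 564 CPM against 168 and 118 CPM (2.17 ± 0.24, edgeR adjusted p = 0.000189). S100a4 was lower in epidermis (-2.49 ± 0.31, edgeR adjusted p = 0.000315), as were S100a6 (-1.56 ± 0.34, edgeR adjusted p = 0.0057) and S100a10 (-0.85 ± 0.20, edgeR adjusted p = 0.00839), the last not without epidermis replicate 2 (adjusted p = 0.12). S100a14 and S100a16 were thus called higher in epidermis, and S100a4 lower, in each of the 3 layer comparisons made here. The share of all genes called alike in all 3 was not counted.

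The change of PWD14 and PWD21 against PWD0 and PWD28 differed between spiny mouse layers for 5 of 9 tested members, against 20.1% of all tested genes (54.0% of the calls were positive, and 32.4% when scaled by library size only). Epidermis minus dermis was 4.66 ± 0.32 log2 units for S100a14 (edgeR adjusted p = 3.54e-05), 2.49 ± 0.39 for S100a16 (edgeR adjusted p = 0.00166), 3.51 ± 0.96 for S100a9 (edgeR adjusted p = 0.0261), 5.41 ± 1.48 for S100a7a (edgeR adjusted p = 0.0287) and 1.10 ± 0.34 for S100a10 (edgeR adjusted p = 0.0455). S100a14 and S100a16 were the 2 members still called without the PWD0 epidermis library, when the difference of S100a9 was 0.97 (adjusted p = 0.503) and that of S100a7a -0.36 (adjusted p = 0.885). Leaving out PWD21 epidermis replicate 1 left 3 members called, without S100a7a and S100a10. The call of S100a10 was lost without any 1 epidermis library or either PWD21 dermis library. The call of S100a9 was lost without either PWD0 dermis library or the PWD28 dermis library (adjusted p = 0.429, 0.0611 and 0.127), and that of S100a7a without PWD0 dermis replicate 2 or the PWD28 dermis library (adjusted p = 0.0515 and 0.143).

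Of the other S100 genes, 6 of 7 listed were found. S100a13 was called lower in epidermis than in dermis in the laboratory mouse center, at the margin and at spiny mouse PWD21 (log2 fold changes -2.01, -1.99 and -2.53), and S100a1 in the first and last of these (-1.80 and -3.47). S100b, a Schwann cell member, was called lower in epidermis in the same 3 comparisons and lower at PWD21 than at PWD0 in spiny mouse dermis (-2.75, edgeR adjusted p = 0.00443), where S100a1 (-4.05) and S100a5 (-4.49) were lower too. Of the 4 tested in spiny mouse epidermis, edgeR called 3 higher at PWD14 than at PWD21 and DESeq2 called 1, where edgeR called 46.6% of all tested genes. These were S100a13 (1.72), S100a5 (1.30) and S100g, a calcium transport member (2.03), the last with 18 and 18 counts at PWD14 and 19 and 4 at PWD21. Of these genes, edgeR and DESeq2 called 0 between center and margin in either layer and 0 between knockout and wild type, and those with an unadjusted p under 0.05 numbered 0, 0 and 1.

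Partners and receptors were counted as a list of 12. In edgeR 0 were called between center and margin in epidermis, in dermis and in the knockout comparison. An unadjusted p under 0.05 was found for 4, 3 and 2 of them, beside 3328 of 14165, 2329 of 14698 and 1631 of 14163 tested genes. DESeq2 called 1, 1 and 2 of them, beside 1511 of 13615, 738 of 14698 and 787 of 14158 genes. Called between layers were 7 in the laboratory mouse center (3 higher in epidermis), 6 at the margin (2 higher) and 10 at spiny mouse PWD21 (4 higher), of 12 tested in each, where 51.8%, 47.7% and 62.9% of all tested genes were called. Anxa2, which encodes the partner of S100A10, was higher at PWD14 than at PWD21 in spiny mouse epidermis, at 6014 and 5446 CPM against 3579 and 3289 CPM (log2 fold change 1.29, edgeR adjusted p = 0.000223), as was Anxa1 (0.88, edgeR adjusted p = 0.00365). Cacybp, a target of S100A6, was higher in epidermis than in dermis in the laboratory mouse center (1.16), at the margin (1.70) and at spiny mouse PWD21 (0.96).

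Among the receptors, Tlr4 measured 1.96 and 2.50 CPM in laboratory mouse center epidermis and 28.2 to 56.3 CPM in center dermis (log2 fold change -3.47, edgeR adjusted p = 5.75e-05) and was lower in epidermis at the margin (-4.17) and at spiny mouse PWD21 (-4.21). Ager, encoding RAGE, was lower in epidermis in the laboratory mouse center (-2.35) and margin (-2.90), at no more than 5.14 CPM anywhere, and Cd36 in all 3 layer comparisons (-5.15, -7.37 and -3.00). Anxa6 was lower in epidermis in the same 3 (-3.28, -3.38 and -3.08), and in spiny mouse dermis it was higher at PWD21 than at PWD0 (1.30, edgeR adjusted p = 0.0209), as was Myh9, which encodes the myosin that S100A4 binds (1.47, edgeR adjusted p = 0.0161). Ahnak was higher in epidermis in all 3 layer comparisons (1.13, 1.37 and 0.83). Anxa11 was lower in spiny mouse epidermis at PWD14 than at PWD21 (-1.92) and lower in epidermis than in dermis at PWD21 (-1.19). Bsg, encoding a receptor of S100A9, was higher in spiny mouse epidermis than in dermis at PWD21 (0.69) and at PWD14 and PWD21 than at PWD0 and PWD28 (0.97).

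Likeness of pattern was measured as the root mean square difference of centered log2(CPM + 1) over the libraries of a species, taken over all genes that averaged 1 CPM or more. Over the 13 laboratory mouse libraries S100a8 and S100a9 were each other's nearest gene (0.72 log2 units), followed by Cxcr2 for S100a8 and Socs3 for S100a9. The nearest of S100a3 were Krt72, a keratin of the inner root sheath, and Krt86, a keratin of the hair shaft (0.41 and 0.47). Over the 12 spiny mouse libraries the nearest of S100a3 were the hair keratin-associated genes Krtap9-3 and Krtap1-3 (0.42 and 0.48), of S100a7a Krtap22-2 and Krtap5-2 (0.36 and 0.45), and of S100a9 the epidermal genes Klk6 and Lce3c (1.17 and 1.30). S100a4 stood nearest to its relative S100a13 there (0.42).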

How the data were processed

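RNA-seq libraries of laboratory mouse wounds (13) and of spiny mouse wounds and unwounded skin (12) were read from tables of raw counts that the authors deposited. There was 1 table a library with 24500 gene symbols. Per the labels and the methods of the study, reads were aligned to mm10 with STAR (the submitters' processing notes give 2.4.1d, and another version stands in the methods) and counted with HTSeq 0.6.0. Laboratory mouse dermis and spiny mouse reads were single-end and laboratory mouse epidermis reads paired-end, and spiny mouse libraries were not strand-specific, so reads of overlapping genes there (S100a3 with S100a2, S100a1 with S100a13) cannot be told apart. Lines of HTSeq that name no gene were left out and held 30.2% to 42.3% of the reads of a laboratory mouse library and 47.1% to 75.6% of a spiny mouse library.

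Levels are counts over the sum of all gene rows, times 1000000. Each of 12 comparisons was fitted on all genes with edgeR 4.0.16 and limma 3.58.1 under R 4.3.3 (TMM, filterByExpr, quasi-likelihood test, Benjamini-Hochberg adjustment over all tested genes, threshold 0.05). SE was taken as the log2 fold change divided by the root of the F statistic. A fold against a group with at most 3 counts in every library was computed against 3 counts in the library where these weigh most. The SE carries the spread between libraries, and floors cover counting error only. Alternatives were DESeq2 1.42.0, other tests, scalings, filters and sample sets, and leaving out each library. Replicates differed by more than sampling noise. Where groups are said not to overlap, how often this held over all genes was not counted. Promoters and positions come from RefSeq GRCm38.p6, the build of mm10, and exon lengths from GENCODE vM21. Members and lists were chosen with earlier results of these data known. All 10 members, Twist1 as the knockout target, and the listed S100 genes, partners and receptors past the threshold in at least 2 comparisons are named, with the 2 nearest genes in pattern for the members whose likeness is given. The division of the wild-type center dermis came from library names given by the study.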

Additional observations from a re-analysis of the deposited data

Results flagged for a closer look

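In 9 cases the difference between layers was itself past the threshold when tested as an interaction in edgeR, which called 3.48% of all tested genes in the laboratory mouse and 20.1% in the spiny mouse. Of all these calls, 96.1% and 54.0% were positive. Between wound center and margin of the laboratory mouse, epidermis minus dermis was 12.73 log2 units for S100a3, 5.95 for S100a8, 6.41 for S100a9 and 3.17 for S100a14, and between PWD14 with PWD21 and PWD0 with PWD28 of the spiny mouse it was 5.41 for S100a7a, 3.51 for S100a9, 1.10 for S100a10, 4.66 for S100a14 and 2.49 for S100a16. With all 5 center dermis libraries S100a8 and S100a9 came to 0.66 and 1.71, neither called, and leaving out 1 library left as few as 1 member called in the laboratory mouse and 2 in the spiny mouse.

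Among the 5 wild-type center dermis libraries, replicate 4 stood apart in 3 members. Its gap to the next library was 0.758 of the group's range for S100a8 (242 CPM against 58.8 CPM in the next) and 0.855 for S100a9 (325 CPM against 49.3 CPM). For S100a3 it was 1 of the range, since replicate 4 held 0.60 CPM and the other libraries 0, which fixes that value (12 counts against none). The limit used for these gaps is passed by chance in about 1 in 20 groups when all values are drawn from 1 normal population. That rate does not hold here, since every member was looked at and the libraries form sets that differ. Replicates 1 and 2, the counterparts of the margin, and replicates 3 to 5, the knockout controls, differed as sets too. S100a8 measured 0.41 and 3.30 CPM in the first set and 32.2 to 242 CPM in the second. For S100a9 these were 2.36 and 4.33 CPM and 32.0 to 325 CPM, and for S100a11 269 and 261 CPM and 530 to 609 CPM.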

How the results depend on the processing

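Of 53 called member results, 24 lost their call under at least 1 alternative and 2 changed sign; of 58 results not called, 28 passed the threshold under at least 1 alternative and 21 changed sign. Causes were not tested. Members called numbered 4 in DESeq2, 4 in the likelihood ratio test and 1 without a low-count filter for epidermis center against margin (0 in the main test), and 1 in DESeq2, 1 over all libraries and 1 with all 5 wild-type libraries for the knockout (0). For dermis center against margin (2) they numbered 1 under the legacy estimate, 1 with at least 10 counts in every library and 0 over all libraries, and for the difference of the laboratory mouse layers (4) they numbered 2, 2 and 0 in the same settings and 1 with all 5 center dermis libraries. With at least 10 counts in every library there were 4 for laboratory mouse center layers (7) and 2 for spiny mouse dermis days (4), and over all libraries 8 for spiny mouse dermis PWD21 against PWD0 (5). Leaving out 1 library gave 1 to 8 for epidermis center against margin, 0 to 2 for dermis center against margin, 0 to 3 for the knockout, 1 to 7 for spiny mouse dermis PWD21 against PWD0, 1 to 6 for the laboratory mouse difference of layers and 2 to 7 for that of the spiny mouse.

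Signs turned as follows, in log2 units. S100a3 in epidermis center against margin was 0.17 in DESeq2, 0.16 in the likelihood ratio test, 0.15 under the legacy estimate and 0.049 over all libraries. With all 5 center dermis libraries S100a8 was 2.26 and S100a9 2.08 in dermis center against margin. Scaled by library size only, S100a9 was -0.59 and S100a10 -0.69 between margin layers, S100a6 was -0.13 across spiny mouse epidermis days and S100a10 was -0.10 across spiny mouse dermis days. With 1 library left out, epidermis center against margin ranged from -0.89 to 8.85 for S100a3, -1.22 to 0.51 for S100a6 and -0.084 to 0.23 for S100a14. Dermis center against margin ranged from -0.077 to 0.37 for S100a4, -0.071 to 0.45 for S100a6 and -9.72 to 0.043 for S100a7a, and the knockout from -0.22 to 0.36 for S100a6. Center layers ranged from -0.20 to 0.030 for S100a10, and margin layers from -0.011 to 2.17 for S100a8, -0.75 to 2.24 for S100a9 and -0.13 to 0.40 for S100a10. Spiny mouse dermis PWD21 against PWD0 ranged from -5.93 to 1.72 for S100a3 and -1.25 to 0.43 for S100a11, and PWD21 layers from -0.53 to 0.070 for S100a3. Epidermis days ranged from -5.76 to 1.17 for S100a3 and -4.93 to 6.62 for S100a7a, and dermis days from -1.14 to 0.35 for S100a4 and -0.65 to 0.34 for S100a10. The difference of layers ranged from -1.32 to 0.47 for S100a6 in the laboratory mouse and -0.36 to 11.22 for S100a7a in the spiny mouse.

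Over all genes, the settings other than leaving out a library moved the calls from 176 to between 0 and 1533 (epidermis center against margin), 125 to between 3 and 886 (dermis), 8 to between 0 and 787 (knockout) and 540 to between 92 and 1485 (difference of laboratory mouse layers). Leaving out 1 library moved them to between 70 and 7405, 19 and 241, 1 and 3353 and 167 and 1343 in these, and to as few as 5054, 4508, 3470, 1311, 1240 and 1983 from 7777, 7141, 6002, 3792, 2443 and 3204 in the layers of center and margin, spiny mouse epidermis PWD14 against PWD21, dermis PWD21 against PWD0, dermis days and the spiny mouse difference of layers. TMM factors changed the group with the highest mean for 0 of 10 members in the laboratory mouse and 0 of the 9 above the floor in the spiny mouse. No paired analysis was possible because the labels carry no replicate numbers, and those used here only name libraries. Groups of 1 to 5 libraries, and low counts of S100a3, S100a7a and S100a8, limit these tests.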
